A study of Mus musculus with 6 samples.

Results

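Spi1 is the mouse gene of PU.1, the ETS-family transcription factor that macrophages need to form and to keep their identity. This account describes the chromatin of its locus, taken as an 85 kb window on chromosome 2 of build mm9 from 90890000 to 90975000. Every deposited p300, PU.1 and H3K4me1 peak inside the window was a member, chosen by position and not by value. There were 58 of them, among 257266 deposited peaks on chromosomes 1 to 19 and X. They comprised 5 p300 peaks of LPS-treated cells, 4 p300 peaks of untreated cells, 11 PU.1 peaks of LPS-treated cells, 9 PU.1 peaks of untreated cells and 29 H3K4me1 peaks of untreated cells.

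The data are chromatin immunoprecipitation with sequencing (ChIP-seq) of primary bone marrow-derived macrophages from female Fvb mice, on day 7 of differentiation in medium conditioned by L929 cells. One set of cells had received lipopolysaccharide (LPS, a bacterial outer-membrane glycolipid that macrophages sense as a sign of infection) at 10 ng/ml for 2 h, and the other set had no treatment. p300 was measured in 2 biological replicates with LPS and 2 without. PU.1 had 1 library with LPS and 1 without, and H3K4me1 and input DNA (sequenced without antibody) had 1 library each, from untreated cells. The labels name no altered genotype, and they do not say how many mice gave the cells.

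p300 is a histone acetyltransferase that is brought to active enhancers by transcription factors, and H3K4me1, mono-methylation of histone H3 at lysine 4, marks enhancers and the flanks of promoters. In blood cells Spi1 is driven from its promoter together with an upstream regulatory element and neighbouring enhancers, and PU.1 protein binds several of these elements itself, an example of a transcription factor acting on its own gene. The level of PU.1 matters for lineage choice, with high levels in macrophages and lower ones in B cells. The start of the gene was taken beforehand as lying near an interval from 90922500 to 90937000, called the start interval, and the gene reads from left to right. Distances here are from the right-hand end of that interval, called the downstream start, so that negative values lie upstream of that point. It is an approximate start and was not checked against a gene map. In the RefSeq annotation of build GRCm38, used for the order of genes only, Gm39874 (a long non-coding RNA gene) and Slc39a13 (a zinc transporter gene) precede Spi1, and Mybpc3 (cardiac myosin-binding protein C) follows it. A gene map of mm9 was not used here, so peaks are given by position and not assigned to these genes, and no sequence is shown.

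The libraries held 5744811 to 7828655 reads, of which 5503587 to 6428281 were at distinct positions on chromosomes 1 to 19 and X. Only distinct reads were counted. The p300 libraries differed by replicate number in the share of reads in peaks: 2.31% and 5.49% of the reads of LPS replicates 1 and 2 lay in the LPS p300 peaks, and 1.44% and 6.20% of the reads of untreated replicates 1 and 2 lay in the untreated p300 peaks. Input had 0.875% and 0.872% of its reads in these lists. The PU.1 list labelled untreated has a track name that mentions LPS. Its exclusive peaks, genome-wide, held 112968 reads of the LPS library and 205549 of the untreated library. Those exclusive to the other PU.1 list held 209123 reads of the LPS library and 99952 of the untreated library. Each list was used under its label. The labelled cell type was not checked against marker genes, since a gene map of mm9 was not used here, and in these bulk samples fewer cells with a bound site and less binding per cell cannot be told apart.

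**Figure D1:**
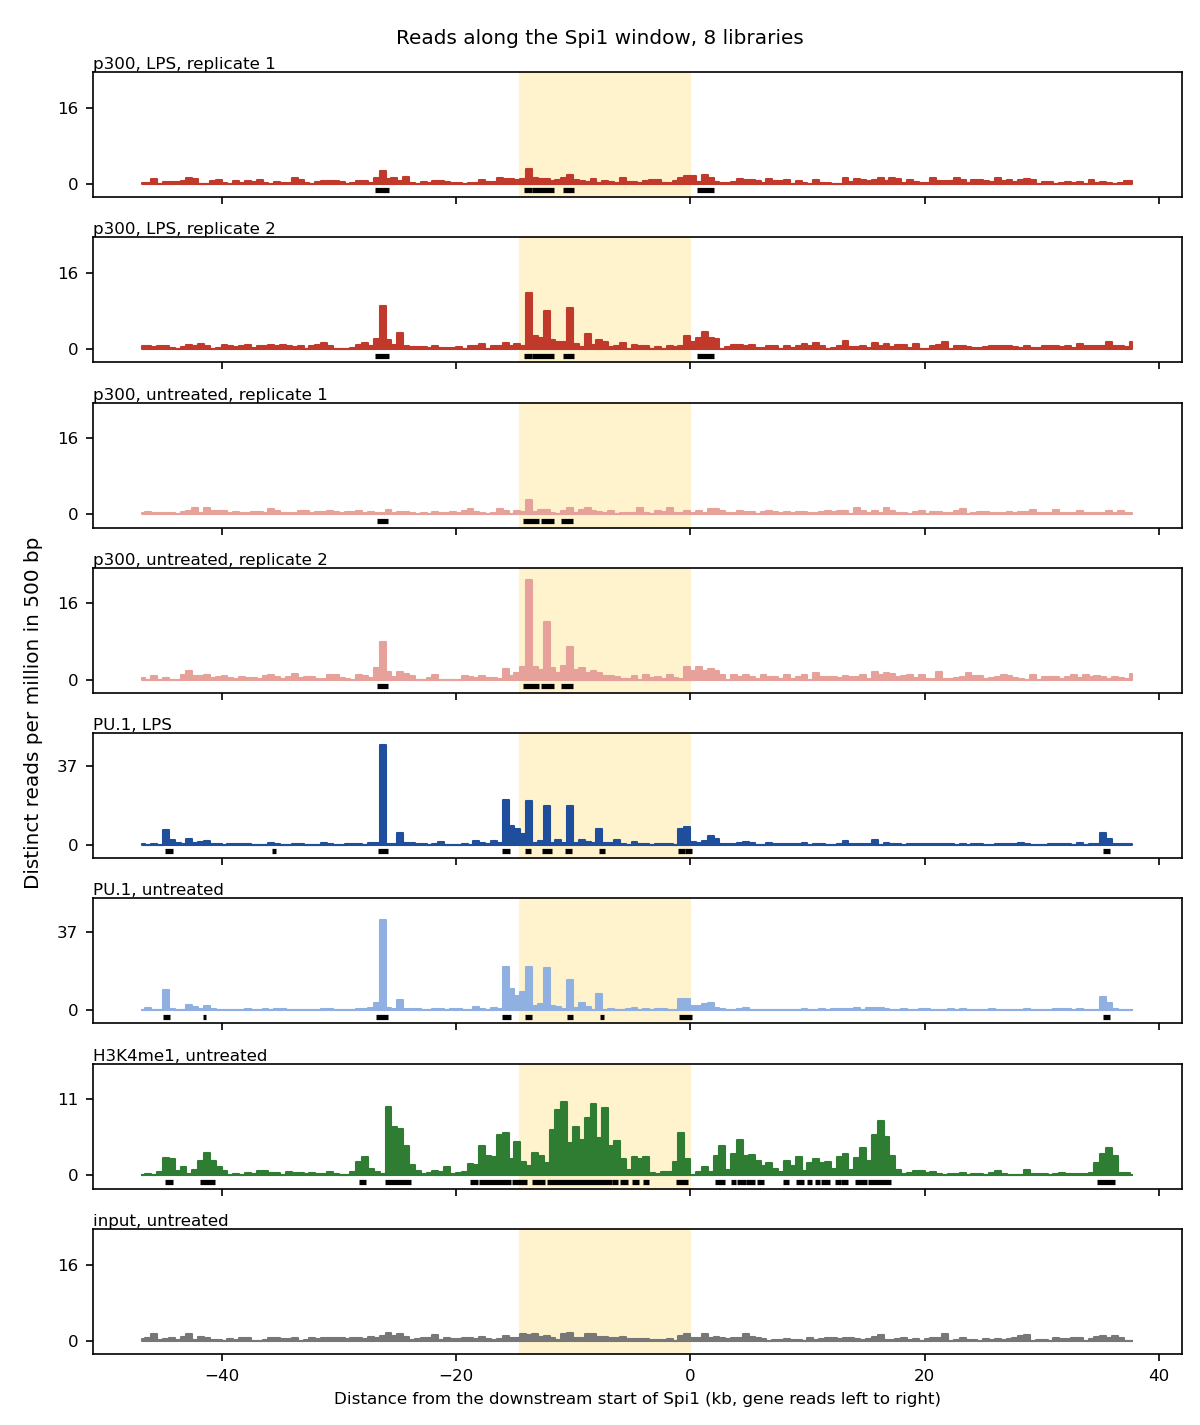
Distinct reads in 500 bp steps, in reads per 1000000 reads of the library (vertical axes), along the Spi1 window (horizontal axis, kb from the downstream start) in the 8 libraries, with the deposited peaks of each list as black bars and the start interval shaded. p300 and input panels share a scale, as do the PU.1 panels. The tallest p300 step reached 11.7 in LPS replicate 2 and 21.0 in untreated replicate 2, while both replicate 1 libraries stayed at or below 3.09 and input at or below 1.65.

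The 9 p300 peaks merged into 4 sites, 3 of them with peaks in both lists. Genome-wide, 23.2% of 19879 merged p300 sites had peaks in both lists. One site lay far upstream at -26.3 kb (90910135 to 90911301), and a wide one lay at -12.9 kb (90922718 to 90925408). The third lay at -10.5 kb (90926009 to 90927079), and the last just past the downstream start at 1.31 kb (90937557 to 90939059). By reads summed over the 4 p300 libraries, the site at -12.9 kb held 478, more than 99.7% of the 19727 sites tested across the genome. The others held 165, 148 and 118 reads, in the order of their positions. The lowest of them, at 1.31 kb, still held more reads than 90.1% of the tested sites.

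The wide site at -12.9 kb was made of several deposited peaks. In the untreated list the left peak (90922718 to 90924110) had an authors' score of 455.16, above 96.3% of that list, and the right peak (90924301 to 90925408) had 270.54, above 91.2%. In the LPS list the corresponding peaks, 90922782 to 90923485 and 90923535 to 90925340, had scores of 217.33 and 158.25. The score is the authors' -10 log10 p-value, and it ranks peaks within a list only. The p300 reads of this site were 41 and 153 in LPS replicates 1 and 2, against 36 and 248 in untreated replicates 1 and 2, and 37 in input. Replicate 2 was thus the highest library in both conditions, and both replicate 1 libraries were close to input.

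p300 at -12.9 kb averaged 79.6 ± 28.5 normalised reads with LPS and 104 ± 52.5 in untreated cells (SD, n = 2 each). Normalised reads are scaled so that the typical p300 site is equal in all libraries. The log2 fold change, LPS over untreated, was -0.28 with an SE of 0.58 and did not pass the test (limma voom across all p300 sites, adjusted p = 0.742). Between the libraries numbered 2 the scaled ratio was 0.707 (exact 95% interval 0.574 to 0.868), and between those numbered 1 it was 0.888 (0.553 to 1.43). Libraries are matched here by number only, and the labels do not say that those of a number were prepared together. These intervals cover counting error only and do not measure the spread between replicates. The left peak of the untreated list had 31 and 84 reads with LPS, against 25 and 154 without. The right one had 10 and 62 with LPS, against 9 and 93 without. Between the libraries numbered 2 the scaled ratio was 0.625 (0.473 to 0.821) for the left peak and 0.764 (0.545 to 1.06) for the right one.

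The far upstream site at -26.3 kb had 24 and 70 p300 reads in LPS replicates 1 and 2, against 5 and 66 in untreated replicates 1 and 2, and 16 in input. Untreated replicate 1 stood below input here, with a depth-scaled ratio of 0.294 (exact 95% interval 0.0843 to 0.841). The means were 40.2 ± 7.69 normalised reads with LPS and 23.4 ± 20.0 without (SD, n = 2 each), and the conditions overlapped, with 34.8 in the lower LPS library and 37.6 in the higher untreated one. The log2 fold change was 0.93 with an SE of 0.53, the highest of the 4 sites, and was not called (limma voom, adjusted p = 0.311). The scaled ratio was 3.74 (1.40 to 12.6) between the libraries numbered 1 and 1.22 (0.856 to 1.73) between those numbered 2. Leaving out untreated replicate 1 gave a log2 fold change of 0.07, and leaving out untreated replicate 2 gave 1.90.

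At -10.5 kb p300 had 16 and 59 reads with LPS, against 13 and 60 without, and 18 in input. The 2 conditions overlapped fully, with 30.8 ± 10.8 normalised reads with LPS and 29.2 ± 7.06 without (SD, n = 2 each). The log2 fold change was 0.04 with an SE of 0.52 (limma voom, adjusted p = 0.959). At 1.31 kb the reads were 18 and 48 with LPS, against 12 and 40 without, and 14 in input. This site had a deposited p300 peak in the LPS list alone, with a score of 66.14, under the list's median of 70.51. Its normalised reads were 26.1 and 31.3 with LPS, against 22.3 and 22.8 without, so the 2 conditions did not overlap under this scaling. Scaled by depth they did overlap, at 1.41 and 3.58 times input with LPS, against 0.807 and 2.92 times without. The site exists through a peak called on the LPS reads alone, so higher values with LPS were favoured beforehand. The log2 fold change of 0.32 (SE 0.52) did not pass the test (limma voom, adjusted p = 0.666). With 5' ends moved 50 bp in place of 100 bp it was 0.14.

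Across the genome limma voom called 2.18% of 19727 p300 sites, 1.97% higher and 0.213% lower with LPS. In the Spi1 window it called 0 of 4 sites, and 0 had an unadjusted p under 0.05. limma-trend also called 0, with 1 site, that at -26.3 kb, under 0.05 before adjustment. The 95% intervals of the log2 fold changes ran from -0.11 to 1.96 at -26.3 kb, from -1.42 to 0.87 at -12.9 kb, from -0.97 to 1.05 at -10.5 kb and from -0.69 to 1.34 at 1.31 kb, so a 2-fold change in at least 1 direction lies within each of them. The median of the 4 log2 fold changes was 0.18, and that of all tested sites was 0.00.

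**Figure D2:**
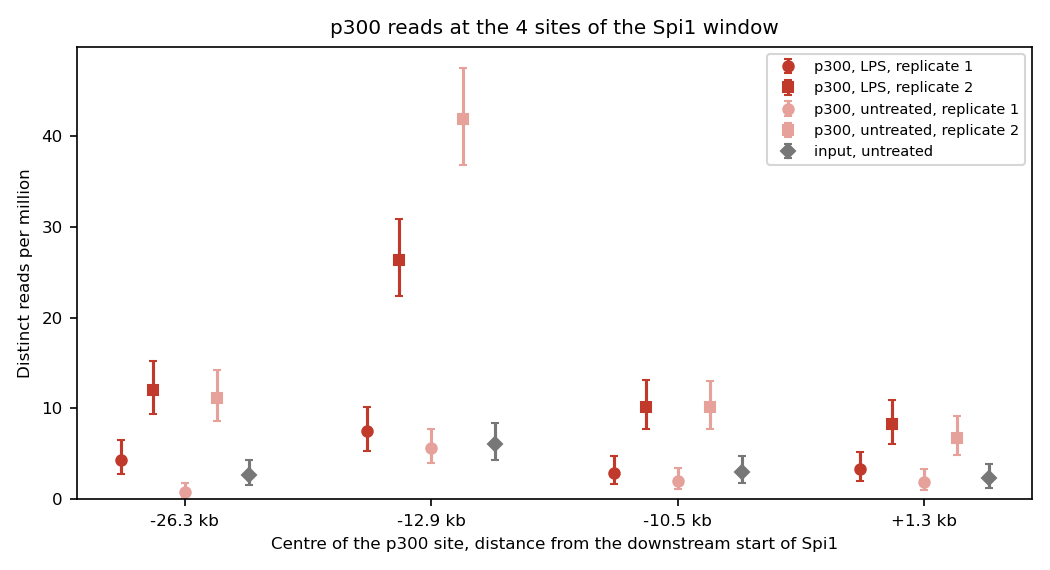
Distinct p300 reads, in reads per 1000000 reads of the library (vertical axis), at the 4 p300 sites, by distance of the site centre from the downstream start (horizontal axis). Each point is 1 library and bars are exact 95% Poisson intervals. Both replicate 2 libraries lie above input at all 4 sites, at 2.92 to 6.86 times its level. The replicate 1 libraries lie lower, at 0.978 to 1.65 times its level with LPS and 0.294 to 0.917 times without.

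Summed over the 4 sites, p300 had 99 and 330 reads with LPS, against 66 and 414 without, and 85 in input. Per 1000000 reads of the library these were 18.0 and 56.9 with LPS, against 10.3 and 70.0 without, and 14.0 in input. The scaled ratio was 1.17 between the libraries numbered 1 (exact 95% interval 0.848 to 1.62) and 0.913 between those numbered 2 (0.788 to 1.06). Both intervals included 1. The two-sided exact permutation test over the 4 libraries gave p = 1, and 0.333 is the smallest p it can give with 2 against 2.

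PU.1 occupied the locus widely in both states. Its deposited peaks merged into 11 sites, 8 of them with peaks in both lists, 2 in the LPS list alone and 1 in the untreated list alone. Genome-wide 66.7% of 87955 PU.1 sites had peaks in both lists. Of the 11 sites, 9 ended before the downstream start, 1 spanned it and 1 lay at 35.5 kb.

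The strongest PU.1 site coincided with the far upstream p300 site at -26.3 kb (90910166 to 90911196). It had 292 reads with LPS and 267 without, against 12 in input, and its total exceeded that of 99.8% of PU.1 sites. The authors' score was 1083.31 with LPS, ranked 221 of 74365 peaks, and 769.73 untreated, ranked 1446 of 73500. The ratio of LPS to untreated reads was 1.09 (exact 95% interval 0.923 to 1.30). With duplicate reads kept it was 1.21 (1.07 to 1.36), an interval above 1.

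Next to the upstream p300 elements PU.1 formed a row of sites. At -15.7 kb (90920920 to 90921721) there were 182 reads with LPS and 173 without, with 8 in input, and p300 was low there, with 9 and 10 reads with LPS against 6 and 16 without. This site overlapped no p300 peak of either list and held more PU.1 reads than 98.2% of PU.1 sites. At -13.8 kb (90922868 to 90923503) PU.1 had 128 reads with LPS and 120 without, and at -12.2 kb (90924388 to 90925200) it had 116 and 128. The site at -12.2 kb was in the LPS list alone, with a score of 55.19, but its reads gave no difference beyond counting error, with a ratio of 0.906 (exact 95% interval 0.699 to 1.17) that became 1.03 with duplicate reads kept.

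At -10.3 kb (90926340 to 90926961) PU.1 had 117 reads with LPS and 87 without, a ratio of 1.34 (1.01 to 1.80). With total reads as library size that interval included 1 (0.971 to 1.73). At -7.54 kb (90929191 to 90929724) the reads were 48 with LPS and 45 without, and no p300 peak was present. Per kb of site, the highest level was that at -26.3 kb, at 283 reads with LPS (exact 95% interval 252 to 318) and 259 without (229 to 292). It was followed by -15.7 kb (227 with LPS and 216 without) and -13.8 kb (201 and 189). Neighbours in this order had overlapping intervals in both libraries, except for the last pair of the untreated library.

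The site at the downstream start itself (-0.449 kb, 90935957 to 90937146) had the highest ratio among the 9 sites with at least 40 reads. PU.1 had 100 reads there with LPS and 62 without, with 17 in input, a ratio of 1.61 (exact 95% interval 1.16 to 2.25). In the LPS list this site was split into 2 peaks. The left peak, 90935957 to 90936567, had 44 reads with LPS and 32 without, a ratio of 1.38 (0.852 to 2.24). The right peak, 90936593 to 90937146, had 56 and 30, a ratio of 1.87 (1.18 to 3.01). p300 at this site was 20 and 20 reads with LPS, against 8 and 23 without, and 17 in input, so no p300 library stood far above input. The highest 200 bp of PU.1 also lay at different ends of this site: it was centred at 90936832 with LPS and at 90936266 without, 566 bp apart. At the other 9 sites with reads in both libraries the distance was 2 to 39 bp. How far the small read number sets this distance was not tested.

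**Figure D3:**
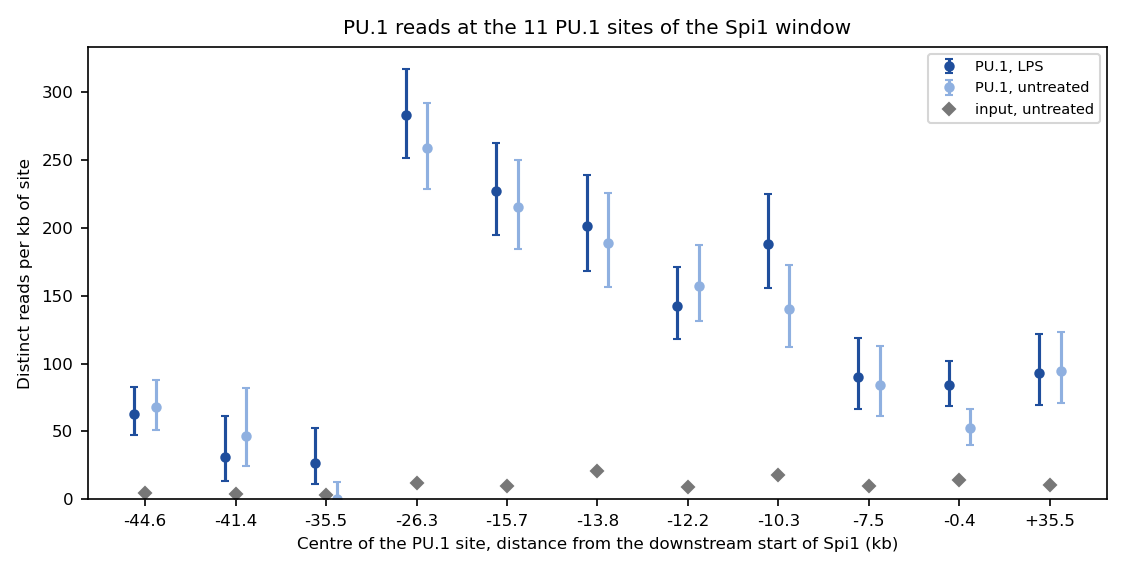
Distinct PU.1 reads per kb of site (vertical axis) at the 11 PU.1 sites, by distance of the site centre from the downstream start (horizontal axis, in kb). Points are single libraries with exact 95% Poisson intervals, and diamonds are input. The intervals of the LPS and untreated libraries are apart at the site nearest the start (84.0 with LPS, 52.1 without), which had 68.4 to 102 and 39.9 to 66.8 as its intervals.

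Of the 9 PU.1 sites with at least 40 reads, the exact interval of the ratio lay above 1 at 2 and below 1 at 0. Across 42940 such sites it lay above 1 at 7.92% and below 1 at 8.81%, and above 2 at 0.564%, a bound that 0 sites of the window passed. Each condition had a single PU.1 library, so these intervals compare the libraries and no p-value across conditions was computed. Summed over the 11 sites, PU.1 had 1104 reads with LPS and 1004 without, a ratio of 1.10 (1.01 to 1.20), which became 1.06 (0.969 to 1.15) with total reads as library size.

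The remaining PU.1 sites were weaker or farther out. At -44.6 kb (90892026 to 90892867) PU.1 had 53 reads with LPS and 57 without, and at 35.5 kb (90972270 to 90972830) it had 52 and 53. At -41.4 kb (90895459 to 90895714), in the untreated list alone, it had 8 reads with LPS and 12 without. At -35.5 kb (90901311 to 90901611), in the LPS list alone, it had 8 with LPS and 0 without. With 3 counts in the untreated library standing for 0 the ratio was 2.67. The exact interval of the ratio, from the counts of 8 and 0, began at 1.71. The site exists through a peak called on these LPS reads alone, so a ratio above 1 was favoured beforehand and tests nothing. This site held more reads than only 0.395% of PU.1 sites. It was also the only one of the 11 that overlapped no H3K4me1 peak.

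PU.1 reads were also compared within the 29 H3K4me1 peaks, after their values were seen. The exact interval of the ratio lay above 1 at 3 of them and below 1 at 1, against 3.53% and 4.68% of all 84743 H3K4me1 peaks. In the H3K4me1 peak at 90930364 to 90930838, which overlapped no deposited PU.1 or p300 peak, PU.1 had 15 reads with LPS and 0 without, against 4 in input. With 3 counts standing for 0 in the untreated library the ratio was 5, and the exact 95% interval of the ratio began at 3.59. p300 had 2 and 6 reads there with LPS and 0 and 5 without. The H3K4me1 peak at 90941753 to 90942542 had 10 PU.1 reads with LPS and 2 without (ratio 5.00, exact 95% interval 1.07 to 46.9), against 9 in input. The one at 90935825 to 90936826, which overlaps the PU.1 site at the downstream start, had 67 and 45 (1.49, 1.01 to 2.22). The one at 90923528 to 90924579, which overlaps the left end of the PU.1 site at -12.2 kb and the wide p300 site, was lower with LPS, with 19 PU.1 reads with LPS and 38 without (0.500, 0.272 to 0.889).

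PU.1 and p300 lay close together at the upstream elements. The highest 200 bp of p300 and of PU.1 within the p300 sites were centred 50 bp apart with LPS and 3 bp apart without at -26.3 kb. The distances were 49 and 45 bp in the wide site and 24 and 41 bp at -10.5 kb. At 1.31 kb they were 330 bp with LPS and 64 bp without. PU.1 had 44 reads at that p300 site with LPS and 46 without, 3.14 and 3.41 times input after scaling for depth (exact 95% intervals 1.69 to 6.20 and 1.84 to 6.72), although it overlapped no PU.1 peak of either list. In all, 4 of the 11 PU.1 sites overlapped a p300 peak, against 12.2% of PU.1 sites genome-wide, and 3 of the 4 p300 sites overlapped a PU.1 peak, against 53% of p300 sites.

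H3K4me1 in untreated cells covered 36.8% of the window in 29 peaks. Their summed reads numbered 1656, against 265 in input, a depth-scaled ratio of 6.20 (exact 95% interval 5.45 to 7.09). The peaks were called against input, so this ratio describes them and tests nothing. Single peaks ranged from 2.69 to 19.9 times input, with a median of 5.71. The highest ratio rested on 20 H3K4me1 reads against 1 in input (exact 95% interval 3.18 to 823). The largest peak ran without a break for 5518 bp from 90924805 to 90930323. It reached from the right-hand part of the PU.1 site at -12.2 kb across those at -10.3 and -7.54 kb. Its score of 2428.52 ranked 112 of 84743 H3K4me1 peaks and its width ranked 150. The median width of the list was 646 bp. This peak held 484 reads, against 61 in input.

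The mark was uneven along the locus. In the start interval, 14.5 kb long, H3K4me1 peaks covered 72.3% of the bases, with 727 reads against 132 in input (ratio 5.47, 4.54 to 6.63). To the left, over 32.5 kb, they covered 27.4%, with 578 reads against 202 (2.84, 2.42 to 3.35). To the right, over 38.0 kb, they covered 31.3%, with 635 reads against 202 (3.12, 2.66 to 3.67). The start interval also holds the PU.1 sites at -13.8, -12.2, -10.3 and -7.54 kb, which lie upstream of the downstream start. Its coverage is thus not that of gene starts alone. Of the 15 H3K4me1 peaks of the right-hand part, 1 overlapped a PU.1 peak and 0 a p300 peak. In the start interval these were 4 and 3 of 8, and to the left 4 and 1 of 6. Genome-wide they were 50.9% and 13.9%. Those overlapping neither numbered 14 of 15 on the right, 4 of 8 in the start interval and 2 of 6 to the left, a share not counted genome-wide. Peak width was not matched: the widest had 2002 bp on the right, 5518 bp in the start interval and 2681 bp to the left. Over the right-hand part PU.1 was 1.31 times input with LPS (1.09 to 1.58) and 1.16 times without (0.957 to 1.41), and over the start interval it was 4.80 times with LPS (3.98 to 5.84) and 4.53 times without (3.74 to 5.51). Over the whole window 9 of 29 H3K4me1 peaks overlapped a PU.1 peak, against 50.9% genome-wide, and 4 overlapped a p300 peak, against 13.9%.

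H3K4me1 was compared between the central 500 bp at each p300 summit of untreated cells and the flanks from 500 to 1500 bp on either side. At -13.8 kb there were 14 H3K4me1 reads per kb at the centre, against 41 to its left and 37 to its right, and at -10.3 kb there were 46, against 109 and 65. These 2 summits lay in dips of the mark. At -26.1 kb the centre had 8, against 14 to the left and 97 to the right, and at -12.1 kb it had 32, against 36 and 119. At both of these the centre was close to the left flank and well below the right one. The left flank at -12.1 kb, with 15 input reads per kb, partly overlapped the H3K4me1 peak at 90923528 to 90924579 (2.69 times input). The right flank at -13.8 kb overlapped the same peak. Flanks of neighbouring summits also shared bases, as did the right flank at -12.1 kb and the left one at -10.3 kb. Their 119 and 109 reads are therefore partly the same reads. Input at the centres was 20 at -13.8 kb, 22 at -10.3 kb, 16 at -26.1 kb and 14 at -12.1 kb, with flanks of 7 to 15. By the mean of the flanks, all 4 untreated p300 peaks of the window had less H3K4me1 at the centre, against 51.1% of 12421 untreated p300 peaks. All 4 were also below each flank taken alone, against 28.7%, but at -26.1 and -12.1 kb the left flank was above the centre by a few reads only. The genome-wide shares cover p300 peaks with or without H3K4me1, and equal counts were no dip. All 4 peaks of the window overlapped an H3K4me1 peak, so the shares are not matched to them. The p300 peak past the downstream start had 13 H3K4me1 reads over its whole length, against 14 in input. The 10 of 11 PU.1 sites that overlapped an H3K4me1 peak compare with 44.6% genome-wide, yet at the strongest PU.1 site the mark had 13 reads against 12 in input. The H3K4me1 peak that overlapped it ran from 90910935 to 90913205, covering the right end of the site and the bases beyond.

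**Figure D4:**
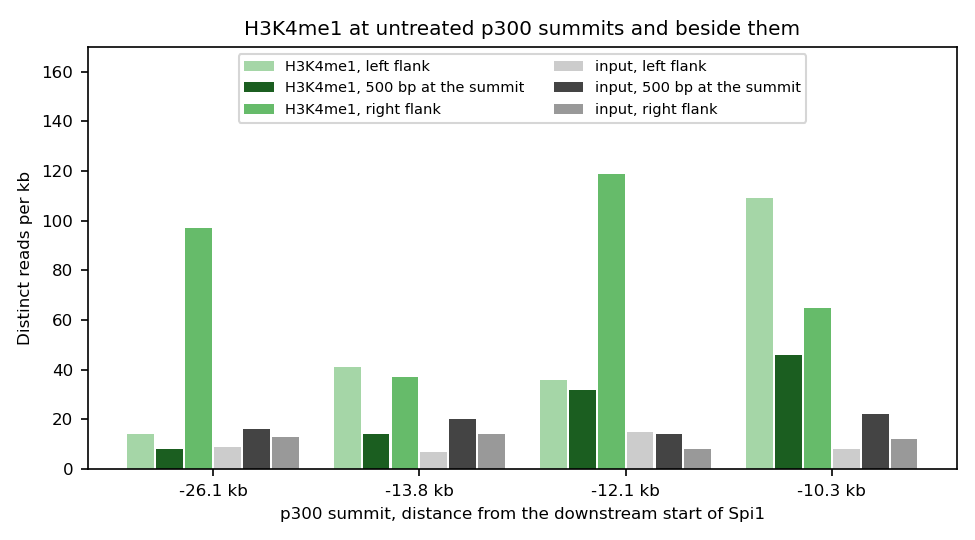
Distinct reads per kb (vertical axis) of H3K4me1 and input in the 500 bp at each untreated p300 summit and in its left and right flanks, by distance of the summit from the downstream start (horizontal axis). Each bar is 1 library, without a replicate. H3K4me1 is low at the centre between higher flanks at -13.8 kb (14 against 41 and 37) and -10.3 kb (46 against 109 and 65). At -26.1 kb (8 against 14 and 97) and -12.1 kb (32 against 36 and 119) the centre is close to the left flank and well below the right one.

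Among 26314 windows of 85 kb tiled along the genome, the Spi1 window stood high by its peak counts and reads. It had more p300 peaks than 99.2% of windows by the LPS list and 98.2% by the untreated list, and more PU.1 peaks than 97.2% by the LPS list and 92.8% by the untreated list. Its 29 H3K4me1 peaks exceeded 99.7% of windows. Input was high as well, with 536 reads where the median window had 197, more than 99.7% of windows. Set against input, PU.1 was 3.08-fold with LPS, above 99.4% of windows, and 2.91-fold without, above 99.0%. H3K4me1 was 3.59-fold, above 98.5%. p300 was 1.07-fold and 1.75-fold in LPS replicates 1 and 2, above 61.7% and 96.5% of windows, and 0.903-fold and 1.88-fold in untreated replicates 1 and 2, above 41.1% and 98.8%. The part of the high input in the peaks of the window was not tested.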

How the data were processed

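ChIP-seq reads and peaks were used as the authors deposited them. Reads were aligned to mm9, the build in the submitters' processing notes; the aligner was not given in the sources used here. The score in each deposited peak list is -10 log10 of the p-value of MACS, per the column description deposited with the series. The control named in the file headers is naked for p300, random for PU.1 and input for H3K4me1. Reads of both replicates were merged for p300 peaks, per the series' design text. Coordinates are printed as deposited.

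A single 36 bp read was kept per position and strand, and 5' ends were moved 100 bp downstream. Overlapping peaks of the LPS and untreated lists formed 1 site. The p300 sites with at least 10 reads were tested genome-wide with limma 3.58.1 voom (R 4.3.3), treatment as the single term, libraries scaled by the median of ratios, Benjamini-Hochberg adjustment at 0.05. The variance estimated was shared by every site, and a site's own replicate spread does not enter its SE or p. Ratios between single libraries carry exact 95% intervals conditional on the sum, which cover counting error only. PU.1 was scaled by the median of ratios over its sites, input comparisons by distinct reads. Windows with under 100 input reads were left out of the ranks. Code was tested on simulated data. The members and measures were chosen with earlier results of these data known. Lists of genes regulating or regulated by PU.1 were not used, since no gene map of mm9 was used here. All p300 and PU.1 sites and H3K4me1 peaks of the window were eligible to be named.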

Additional observations from a re-analysis of the deposited data

How the results depend on the processing

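Of the 4 p300 sites of the Spi1 window, 0 were called under any alternative that kept all 4 libraries. With the replicate block the log2 fold changes were 0.70, -0.37, 0.09 and 0.36 in order of position. The block raised the calls of the whole genome to 896 higher and 395 lower. With only peaks of score 100 or more, 0 of the 3 sites with a value were called. That setting called 1227 higher and 554 lower of 5917 sites genome-wide. Fits with 1 replicate left out are given by effect size only. Replicate numbers stand in the read files' names, and r between the deviations of same-numbered libraries was 0.274 over 19727 sites. The labels do not say that a number marks a shared mouse or day, so the numbers were not taken to pair the libraries. With 1 replicate left out the log2 fold change ran from -0.92 to 0.29 at -12.9 kb and from -0.19 to 0.53 at -10.5 kb, so neither direction is stable. It ran from 0.07 to 1.90 at -26.3 kb, and the log2 ratio of the summed reads ran from -0.39 to 0.55. Scaling by total reads and by background bins moved the median of all p300 sites to 0.20 and 0.18. The site at -26.3 kb then had 1.21 and 1.19, that is, above that shift, and limma voom called 0 sites genome-wide, with 1494 and 1457 at an unadjusted p under 0.05. The absence of calls in the window under these 2 scalings therefore says nothing particular to it.

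With only peaks of score 100 or more, the LPS PU.1 list held 7 peaks and the H3K4me1 list 16 in the window, and 1 untreated p300 peak overlapped an untreated PU.1 peak. The site at 1.31 kb had no value there. With an overlap of at least 50% of the shorter peak, 6 LPS PU.1 peaks and 2 LPS p300 peaks overlapped H3K4me1. The share of windows below the Spi1 window became, at score 100, 99.6% and 98.9% (p300, LPS and untreated), 96.1% and 95.6% (PU.1, LPS and untreated) and 98.9% (H3K4me1). With all reads kept it was 99.5% for input reads and 93.1% for untreated PU.1 peaks. Over input, chosen after the input reads were seen, it was 96.5% and 98.8% for p300 replicate 2 (LPS and untreated), 99.4% and 99.0% for PU.1 and 98.5% for H3K4me1. The cause of these shifts was not tested. Of 41 PU.1 site ratios under alternatives, 36 kept their direction. Replicate 1 of p300 was near input at these sites, which limits what the fit can show.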
